A study of Mus musculus with 12 samples.

Results

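Heat shock proteins and chaperones were examined in RNA pulled down from the basolateral amygdala of mice after footshocks (shock) or after meeting a female (female). Members were the genes that the deposited table names with a single symbol of the Hsp, Dnaja, Dnajb, Dnajc or Cct series, together with Tcp1, Hsf1 and Hsf2. This gave 85 of the 20752 genes with 1 symbol, read by 202 probe sets. The brightest probe set, by its mean over the 6 arrays, stood for a gene, and 72 of the 85 genes passed the filter on dim probe sets and were tested. The remaining 13 lay below it: Dnajb3, Dnajb7, Dnajb8, Dnajb13, Dnajc5b, Dnajc5g, Hspa1l, Hspb1, Hspb2, Hspb7, Hspb9, Cct6b and Cct8l1.

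PABPC1, the poly(A)-binding protein that coats the tails of mRNAs, carried a FLAG tag and was driven by the fos promoter in the basolateral amygdala of both groups, and RNA was recovered by immunoprecipitation against FLAG. The fos promoter is switched on by neuronal activity, so the cells that made the tag were those in which it was active. Each group had 3 arrays (Affymetrix Mouse 430 2.0), each holding RNA pooled from 2 mice, and the design note gives 3 mice per group. The labels do not say whether any mouse entered more than 1 pool, so the p-values measure the spread between these arrays, which may be technical. Strain, sex, age, the vector that carried the tag and the time between stimulus and tissue collection are not stated in the labels. No untreated mice and no RNA from before the pulldown were analysed here, so a change in the amount of a transcript and a change in the share bound by the tagged protein cannot be told apart. As in any bulk sample, fewer cells of a type and less RNA per cell cannot be told apart either.

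Chaperones bind unfolded or partly folded proteins. Hsp70 proteins do so in cycles of ATP hydrolysis that J proteins (the Dnaj families) start and nucleotide exchange factors end, and Hsp90 receives clients from Hsp70 through adapter co-chaperones. When unfolded protein accumulates in the cytosol, heat shock factor Hsf1 binds heat shock elements, repeats of a short inverted unit, and raises transcription of the inducible members, while unfolded protein in the endoplasmic reticulum (ER) acts through ATF6, IRE1 and PERK on a separate set. Neurons hold high levels of the constitutive members, and several J proteins serve synaptic vesicles and clathrin coats.

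The arrays themselves differed in ways that touch every value below. Over 2647 genes with probe sets at least 500 bases apart, the signal at the probe set nearest the 5' end minus that nearest the 3' end was -0.90 ± 0.07 on the shock arrays and -0.64 ± 0.15 on the female arrays (log2, SD, n = 3 each), with no overlap between the groups. Female replicate 2, at -0.47, stood apart from the other female arrays at -0.71 and -0.74. Correlations over the 27022 tested probe sets were 0.991 to 0.993 among shock arrays, 0.974 to 0.994 among female arrays and 0.936 to 0.985 between groups. Female replicate 2 was the lowest of the 6 arrays in 42 of the 72 tested members and in 5905 of the 13203 tested genes, and the median deviation of the members from their own 6-array mean was -0.16 on that array and between 0.00 and 0.06 on the others. Markers of neurons (8 of 8 above the filter) had summed MAS5 signals of 58080 to 68010 on shock arrays and 63140 to 67360 on female arrays. Excitatory neuron markers (6 of 6) summed to 8088 to 9093 on shock arrays and 11000 to 11150 on female arrays, and inhibitory neuron markers (6 of 6) to 24130 to 27650 on shock arrays and 20780 to 23410 on female arrays. Within both lists the markers were split. On RMA values 3 excitatory markers were higher in shock and 3 lower (-0.98 to 0.56). Of the inhibitory markers 4 were higher and 2 lower (-0.69 to 0.86). Markers of other cells were present too: oligodendrocyte markers (7 of 7) summed to 27900 to 31020 on shock arrays and 34050 to 42930 on female arrays, and astrocyte markers (6 of 6) to 25430 to 27310 on shock arrays and 23500 to 27100 on female arrays. Microglial markers (7 of 8 above the filter) summed to 2538 to 2873 on shock arrays and 2546 to 3975 on female arrays. Endothelial markers (5 of 6) summed to 1243 to 1398 on shock arrays and 1519 to 1993 on female arrays. Each sum took in all the markers of its list, also those below the filter. Values without female replicate 2, and with the 5' to 3' measure in the fit, stand beside many of the results they bear on. Since the measure did not overlap between the groups, a fit with it cannot separate it well from group. The differences from that fit are therefore not corrected effects. The part of the cell type markers in the results was not tested.

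Few chaperone genes passed the test between shock and female. Of the 72 tested members, 5 were higher in shock (Hspa1b, Hspa13, Hspa14, Dnajc10 and Dnajc12) and 1 was lower (Hspbp1), 8.33% in all, beside 20.0% of all 13203 tested genes (10.6% higher in shock and 9.4% higher in female, limma, Benjamini-Hochberg adjusted p under 0.05). The 3 arrays of one group lay wholly above the 3 of the other in 26 members (36.1%), 17 with shock above and 9 with shock below, beside 48.7% of all tested genes. The median log2 difference, shock minus female, was 0.06 over the members and 0.06 over all tested genes. In 60 of the 72 members the difference was smaller than 0.3 in size, as in 8632 of the 13203 tested genes, and 17 members had an unadjusted p under 0.05, beside 5254 of the 13203. On MAS5 values 0 members were higher in shock and Hspbp1 was still lower (limma, 4 higher and 2 lower at an unadjusted p under 0.05), in a fit that called 543 of all 27022 probe sets, against 5614 on RMA values. The 5 lost calls kept their sign there, at 0.57 for Hspa13, 0.49 for Hspa1b, 0.39 for Dnajc10, 0.30 for Hspa14 and 0.29 for Dnajc12. Leaving out any one of the 3 shock arrays also left 0 members higher, with 7 to 9 higher at an unadjusted p under 0.05 (limma). Calls over all probe sets in those fits are not given here, so these 0 counts cannot be set against all genes. By the authors' deposited table, 17 of all 85 members had a p under 0.05 and 0 had a false discovery rate under that threshold, the lowest being 0.126. Those 17 include Hspa1l and Hspb1, which lay below the filter, so the count is not the same as that of the 72 tested members. Counts over all genes of the deposited table are not given here, so its 17 cannot be set against all genes. That table, which names no genome build, places the probe sets of the genes that rose at chr17:34956430-34957769 (Hspa1b, minus strand), chr16:75755189-75755988 (Hspa13, minus strand), chr2:3488850-3512792 (Hspa14, minus strand), chr2:80315694-80354047 (Dnajc10, plus strand) and chr10:63386575-63408835 (Dnajc12, plus strand). The probe set of Hspbp1 lies at chr7:4660514-4684970 on the minus strand.

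**Figure D1:**
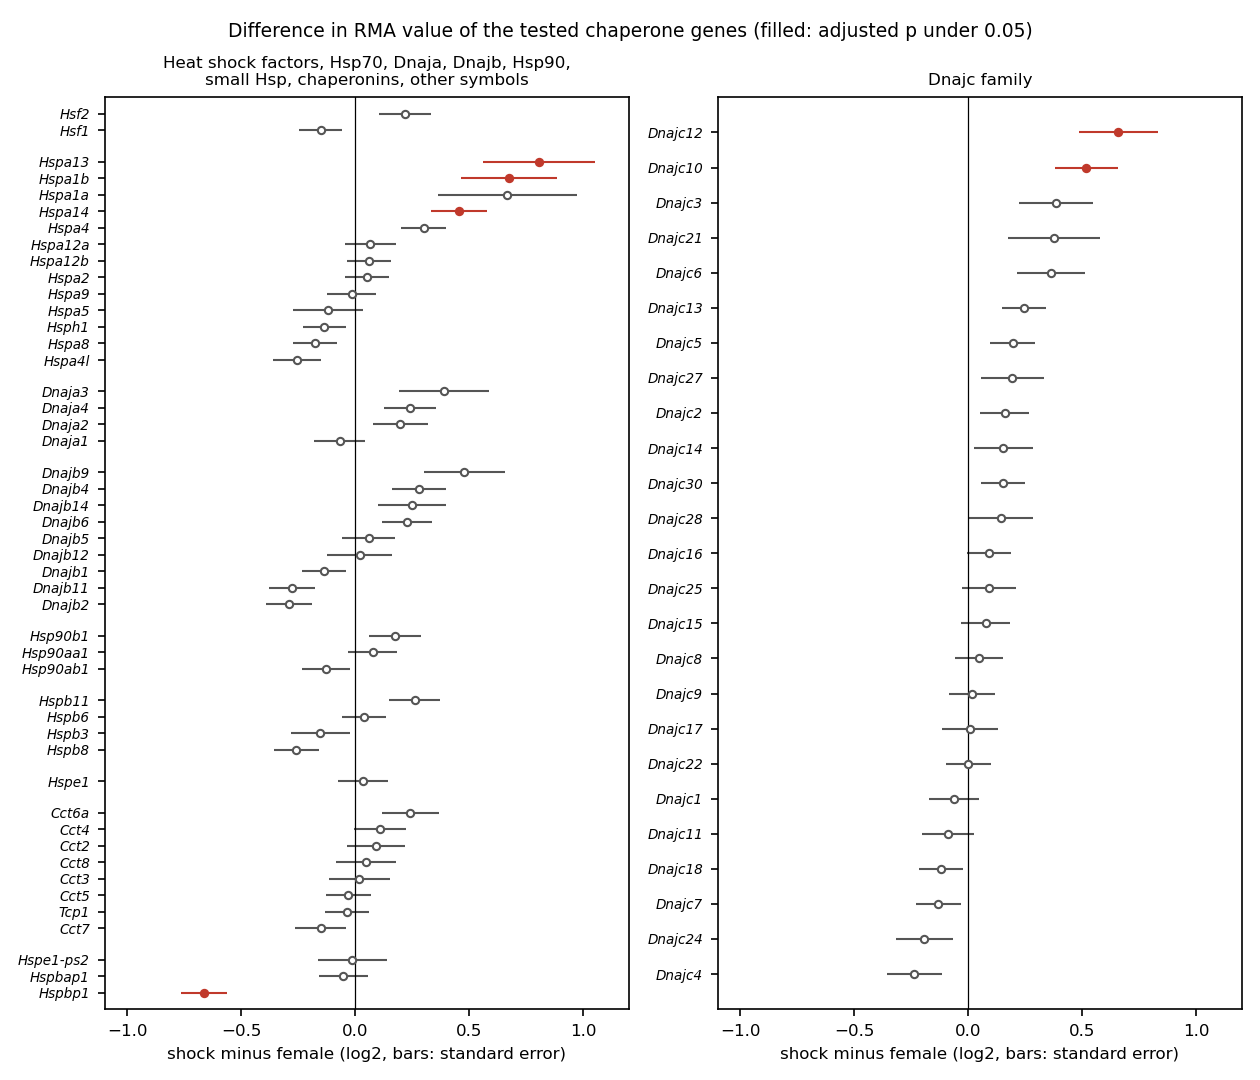
Difference in RMA value, shock minus female (log2, x axis), of the 72 tested chaperone genes, grouped by family down the page, with bars of 1 standard error and filled points where adjusted p is under 0.05. Most points lie within 0.3 of 0, and the 6 filled points are Hspa13, Hspa1b, Hspa14, Dnajc10 and Dnajc12 to the right and Hspbp1 to the left.

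Of the transcription factors that control the heat shock genes, neither passed the test. Hsf1, the main activator, had 9.04, 9.0 and 8.96 (RMA, log2) on the shock arrays, against 9.14, 9.21 and 9.13 on the female arrays. Every shock array was below every female array, by a small step: the difference was -0.15 (SE 0.09, adjusted p = 0.244). Hsf2, a second factor that binds the same element, had 6.60, 6.85 and 6.70 on the shock arrays, against 6.56, 6.35 and 6.59 on the female arrays. The groups lay next to each other without overlap, and the difference was 0.22 (SE 0.11, adjusted p = 0.174).

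The following stress-regulated promoters are shown because they hold letter matches to the elements of these pathways. Their genes also differ in what the arrays showed: Hspa1b passed the test, and Hspe1 and Hspa5 did not. Each window covers 250 bases before and 50 bases after the gene start (RefSeq, GRCm38.p6), at chr17:34959189-34959488 on the minus strand for Hspa1b, chr1:55087898-55088197 on the plus strand for Hspe1 and chr2:34771840-34772139 on the plus strand for Hspa5. Capitals mark adjacent heat shock units in Hspa1b and Hspe1, and in Hspa5 the ER stress element, CCAAT and CCACG with 9 bases between them.
Hspa1b: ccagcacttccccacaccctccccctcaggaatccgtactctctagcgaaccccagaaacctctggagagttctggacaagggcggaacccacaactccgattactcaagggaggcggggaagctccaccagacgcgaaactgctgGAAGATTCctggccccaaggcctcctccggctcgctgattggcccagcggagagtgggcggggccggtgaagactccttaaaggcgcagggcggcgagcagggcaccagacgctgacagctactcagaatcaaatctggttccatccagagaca
Hspe1: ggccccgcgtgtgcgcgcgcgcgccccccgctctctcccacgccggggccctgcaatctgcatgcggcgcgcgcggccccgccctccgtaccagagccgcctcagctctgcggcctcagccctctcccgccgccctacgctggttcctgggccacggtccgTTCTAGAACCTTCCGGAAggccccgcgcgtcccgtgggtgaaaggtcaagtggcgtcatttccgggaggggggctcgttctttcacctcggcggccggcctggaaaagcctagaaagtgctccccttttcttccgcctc
Hspa5: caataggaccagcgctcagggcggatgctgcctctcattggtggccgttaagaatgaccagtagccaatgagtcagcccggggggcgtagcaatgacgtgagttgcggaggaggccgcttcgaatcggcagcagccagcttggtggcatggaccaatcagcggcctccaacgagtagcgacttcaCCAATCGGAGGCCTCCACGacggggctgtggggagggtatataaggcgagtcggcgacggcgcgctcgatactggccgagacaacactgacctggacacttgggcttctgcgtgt

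Pairs of adjacent heat shock units, GAANNTTC or TTCNNGAA searched on both strands, were present in 17.0% of 27025 genes with a RefSeq window of this length (15.1% of 32851 windows) and in 19 of the 68 members that have one (27.9%). Of the 16 tested members among those 19, 2 passed the test (Hspa1b and Dnajc10), with a median difference of 0.14. Of the 41 tested members without the pair 2 passed as well, with a median of 0.06. A run of 3 units, in 0.662% of all genes (0.603% of windows), was found in Hspe1, Hsph1 and Dnajb6. The ER stress element, in 0.137% of all genes (0.119% of windows), was found in Hspa5, Hsp90b1 and Dnajc3. None of these 6 genes passed by its brightest probe set. Further probe sets of Hsph1, Dnajb6 and Dnajc3 did pass, lower in shock at -0.29, -0.40 and -0.38. These matches describe letters in a window and not sites in use. The Hspa1a and Hspa1b windows were identical at 296 of 300 bases.

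The Hsp70 family gave 3 of the 5 genes that were higher in shock, among 13 tested of 14, a share of 23.1% beside 20.0% of all tested genes. Hspa1b, the stress-inducible cytosolic Hsp70, had 8.65, 9.14 and 8.62 on the shock arrays, against 8.33, 7.64 and 8.43 on the female arrays. Shock replicate 2 was the highest array and female replicate 2 the lowest, and the groups did not overlap. The difference was 0.67 (SE 0.21, adjusted p = 0.0485), a 1.59-fold higher level, and it was 0.43 (adjusted p = 0.0597) without female replicate 2. A second Hspa1b probe set gave 0.58 (adjusted p = 0.0731). Hspa1a, its neighbour on chromosome 17 and a near-identical copy, had 7.81, 8.45 and 7.72 on the shock arrays, against 7.69, 6.54 and 7.75 on the female arrays. Here the groups overlapped, and the difference of 0.67 had the wider error (SE 0.30, adjusted p = 0.13), with 0.27 left without female replicate 2. Because the 2 genes share nearly all their sequence, the split of signal between them is uncertain.

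Hspa13, an Hsp70-like ATPase of the ER and microsomes, showed the largest difference among the tested members. It had 9.91, 9.70 and 9.88 on the shock arrays, against 9.36, 8.32 and 9.40 on the female arrays. All shock arrays were above all female arrays, and female replicate 2 was about 1 unit below the other female arrays. The difference was 0.81 (SE 0.25, adjusted p = 0.045), and 0.45 without female replicate 2 (adjusted p = 0.0116). With the 5' to 3' measure of each array, which did not overlap between the groups, as a term in the fit it was -0.12 (adjusted p = 0.864). The Hspa13 probe set that passed is the one nearest the 3' end, and the tested probe sets 1283 bases further 5' gave 0.06 (adjusted p = 0.712) and -0.17 (adjusted p = 0.231). Hspa14, which works at the ribosome with the J protein Dnajc2 on newly made chains, had 10.54, 10.76 and 10.47 on the shock arrays, against 10.21, 9.94 and 10.26 on the female arrays. The groups did not overlap, and the difference was 0.45 (SE 0.12, adjusted p = 0.0323), a 1.37-fold higher level. Its other tested probe sets gave 0.21 (adjusted p = 0.33) and -0.06 (adjusted p = 0.696).

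The abundant constitutive Hsp70 genes did not pass. Hspa8, the constitutive cytosolic Hsc70 that also uncoats clathrin vesicles, had 12.90, 12.96 and 13.06 on the shock arrays, against 13.17, 13.16 and 13.12 on the female arrays. All shock arrays were below all female arrays, by a small margin, with a difference of -0.18 (SE 0.10, adjusted p = 0.191). Hspa9, the mitochondrial Hsp70, differed by -0.02 (SE 0.11, adjusted p = 0.924), Hspa2 by 0.05 (adjusted p = 0.715) and the distant family member Hspa12a by 0.06 (adjusted p = 0.688), each with overlapping groups. Hspa5 (BiP), the Hsp70 of the ER lumen and a sensor of its folding load, had 11.39, 11.31 and 11.38 on the shock arrays, against 11.61, 11.10 and 11.73 on the female arrays. Female replicate 2 was the lowest array and the other female arrays were the highest, and the difference was -0.12 (SE 0.15, adjusted p = 0.58). Without female replicate 2 it was -0.31 (adjusted p = 0.038).

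**Figure D2:**
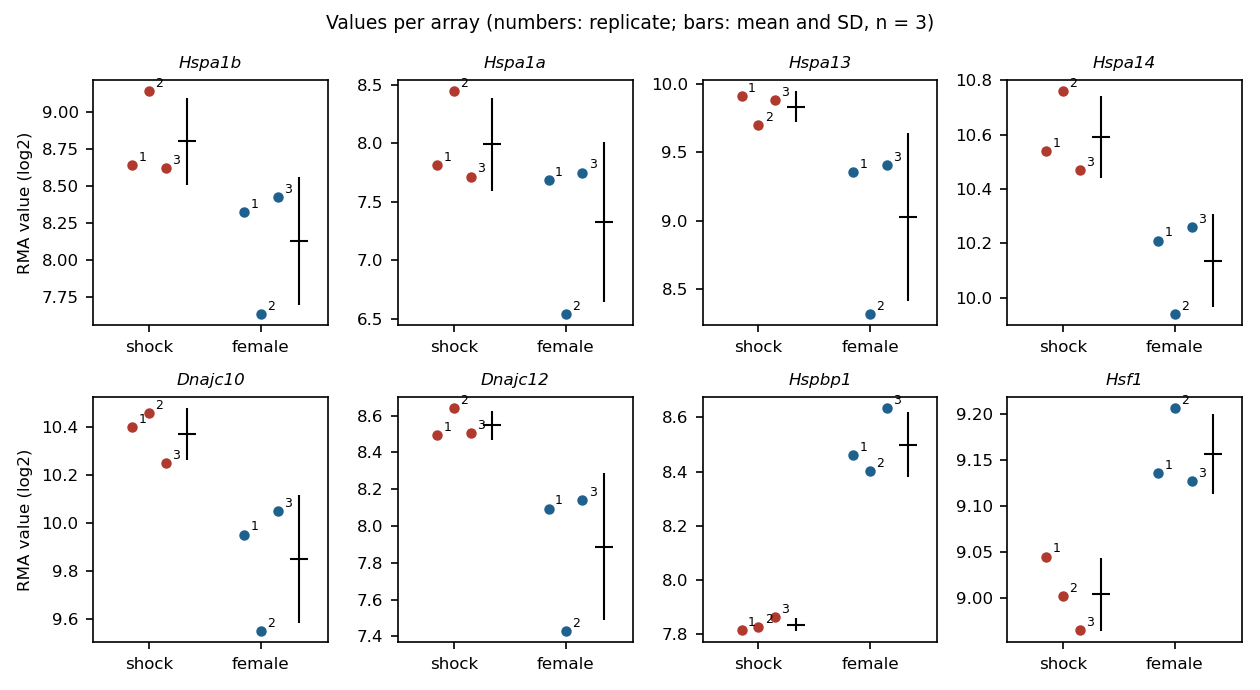
RMA values (log2, y axis) of Hspa1b, Hspa1a, Hspa13, Hspa14, Dnajc10, Dnajc12, Hspbp1 and Hsf1 on the 3 shock arrays (left) and the 3 female arrays (right), with the replicate number beside each point and the mean with SD beside each group. Female replicate 2 is the lowest point in the 6 genes whose shock mean is higher, and the 2 groups are apart in Hspbp1 with shock at 7.82 to 7.86.

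Among the proteins that release nucleotide from Hsp70, Hspbp1 was lower in shock. Hspbp1 is known, in human and yeast forms, to bind the Hsp70 ATPase domain and to hold back or speed up its cycle. It had 7.82, 7.83 and 7.86 on the shock arrays, against 8.46, 8.40 and 8.63 on the female arrays. The shock arrays lay close together and well below all female arrays. The difference was -0.66 (SE 0.10, adjusted p = 0.00633), a 1.58-fold lower level, and it was -0.84 (adjusted p = 0.0338) on MAS5 values and -0.71 (adjusted p = 0.00133) without female replicate 2. With this 5' to 3' measure as a term in the fit it was -0.78 (adjusted p = 0.113). No other probe set of Hspbp1 was tested. Hsph1 (Hsp110), an exchange factor and holdase, had 12.10, 12.05 and 12.06 on the shock arrays, against 12.28, 12.12 and 12.22 on the female arrays. The groups did not overlap, and the difference was -0.14 (SE 0.10, adjusted p = 0.307). A second, dimmer Hsph1 probe set had 11.01, 11.02 and 11.06 on the shock arrays, against 11.37, 11.28 and 11.32 on the female arrays, a difference of -0.29 (adjusted p = 0.0487). The related exchange factors Hspa4 and Hspa4l differed by 0.30 (SE 0.10, adjusted p = 0.0536) and by -0.26 (SE 0.10, adjusted p = 0.0994). Their probe sets disagreed in direction: further Hspa4 probe sets were at 0.00, -0.26 and -0.49, the last past the threshold (adjusted p = 0.0236), and further Hspa4l probe sets at -0.17, 0.23 and 0.38.

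The J proteins, which bring clients to Hsp70 and trigger hydrolysis, were the largest family, with 38 tested of 44. By their brightest probe sets 2 rose, 0 fell and 36 did not pass the test, and the median difference was 0.12. The share that passed was 5.26%, beside 20.0% of all tested genes. Dnajc10 (ERdj5), a J protein of the ER lumen that reduces disulfide bonds in misfolded proteins, had 10.40, 10.46 and 10.25 on the shock arrays, against 9.95, 9.55 and 10.05 on the female arrays. The lowest shock array was above the highest female array, with a difference of 0.52 (SE 0.14, adjusted p = 0.0306). The other Dnajc10 probe sets gave 0.27 and 0.28, neither past the threshold. Dnajc12, known in humans as a co-chaperone for the aromatic amino acid hydroxylases that make catecholamine and serotonin precursors, had 8.49, 8.64 and 8.51 on the shock arrays, against 8.10, 7.43 and 8.14 on the female arrays. The groups did not overlap, and the difference was 0.66 (SE 0.17, adjusted p = 0.0298), a 1.58-fold higher level. Without female replicate 2 it was 0.43 for Dnajc12 (adjusted p = 0.0115) and 0.37 for Dnajc10 (adjusted p = 0.026).

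The heat-inducible cytosolic J proteins did not pass. Dnajb1 (Hsp40), the partner of inducible Hsp70, had 11.85, 11.67 and 11.83 on the shock arrays, against 11.92, 11.93 and 11.90 on the female arrays. The shock arrays were all lower and more spread, and the difference was -0.14 (SE 0.10, adjusted p = 0.312). Dnaja1 differed by -0.07 (SE 0.11, adjusted p = 0.665). The J proteins of synapses and aggregates did not pass either: Dnajc5 (cysteine string protein of synaptic vesicles) differed by 0.19 (SE 0.10, adjusted p = 0.165), Dnajc6 (auxilin, the clathrin uncoating partner of Hspa8) by 0.36 (SE 0.15, adjusted p = 0.0998), Dnajb6, which holds back polyglutamine aggregation, by 0.23 (SE 0.11, adjusted p = 0.149), and Dnajb2, a neuronal J protein that delivers clients for degradation, by -0.29 (SE 0.10, adjusted p = 0.0653). In these probe sets of Dnajc5, Dnajc6 and Dnajb6 all shock arrays were above all female arrays, and in Dnajb2 all were below. The other 3 Dnajb6 probe sets went the opposite way, at -0.40 (adjusted p = 0.023), -0.24 and -0.19, and another Dnajc5 probe set was at -0.43 (adjusted p = 0.0211).

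Grouped by compartment, a grouping written after the values were seen, 10 members work in the ER, of which 2 were higher in shock (Hspa13 and Dnajc10), 0 lower and 8 not past the test, with a median difference of 0.21. This share, 20%, is that of all tested genes (20.0%). Dnajb9 (ERdj4) and Dnajc3 (P58IPK), both ER partners of Hspa5 that the unfolded protein response induces, differed by 0.48 (SE 0.18, adjusted p = 0.0785) and by 0.38 (SE 0.16, adjusted p = 0.106), with all shock arrays above all female arrays. Without female replicate 2 the differences were 0.25 and 0.19, and a second Dnajc3 probe set was lower in shock, at -0.38 (adjusted p = 0.0306). Dnajb11 (ERdj3), another luminal partner, differed by -0.28 (adjusted p = 0.0711). The differences of the ER members thus had both signs. Without female replicate 2 the ER median was 0.12, and with the 5' to 3' measure in the fit it was -0.02. The 6 mitochondrial members gave 0 calls and a median of 0.05, with 0 at an unadjusted p under 0.05.

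**Figure D3:**
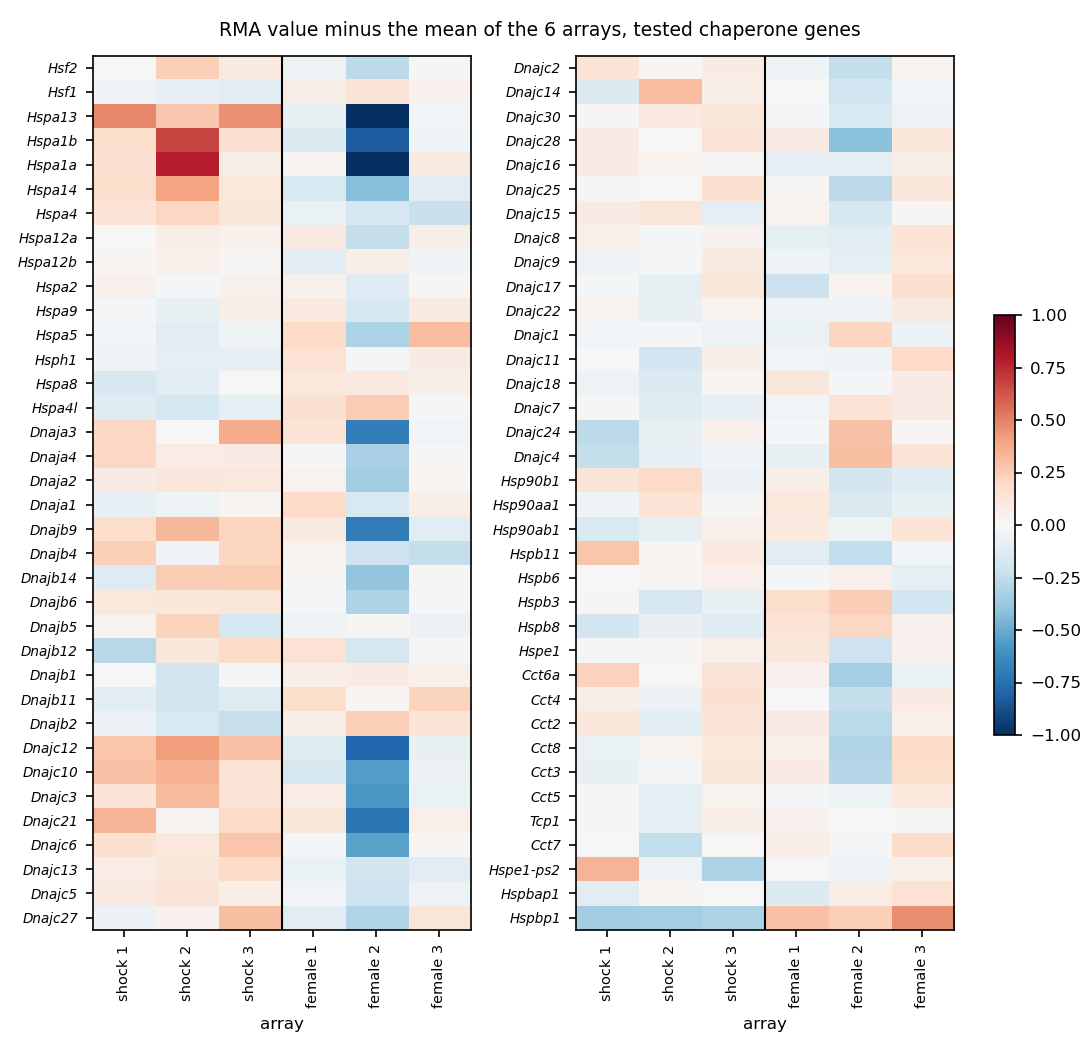
RMA value of each tested chaperone gene minus its mean over the 6 arrays (log2, colour scale limited at -1 and 1), with genes by family down the page and the shock arrays left of the female arrays. Female replicate 2 is the column with the most low values, the lowest of the 6 arrays in 42 of the 72 genes.

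Hsp90 family members, which mature kinases and steroid receptors, did not pass with their brightest probe sets. Hsp90aa1, the inducible cytosolic form, had 12.52, 12.69 and 12.57 on the shock arrays, against 12.66, 12.41 and 12.48 on the female arrays. These overlapped, with a difference of 0.08 (SE 0.11, adjusted p = 0.615). Hsp90ab1, the constitutive cytosolic form, had 12.42, 12.48 and 12.62 on the shock arrays, against 12.67, 12.52 and 12.71 on the female arrays. These overlapped too, with a difference of -0.13 (SE 0.10, adjusted p = 0.375). A second Hsp90ab1 probe set, listed at the same position, had 10.39, 10.62 and 10.52 on the shock arrays, against 11.11, 11.18 and 11.26 on the female arrays. Here all shock arrays were well below all female arrays, and the difference was -0.67 (adjusted p = 0.0064), so the 2 probe sets of this gene disagree. Hsp90b1 (Grp94), the ER form, differed by 0.17 (SE 0.11, adjusted p = 0.269). The deposited table places the brightest probe sets of Hsp90aa1 and Dnajb6 on chromosomes 11 and 12, whereas RefSeq has the genes on chromosomes 12 and 5, so these probe sets may also read related sequences.

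Small heat shock proteins, which hold unfolded proteins without ATP, were mostly dim. Of the 8 grouped here by symbol alone, 4 were tested and 0 passed (limma, 2 at an unadjusted p under 0.05). Those 2 were Hspb8 and Hspb11. Hspb8, a partner of the autophagy co-chaperone Bag3, differed by -0.26 (SE 0.10, adjusted p = 0.082). Hspb11 differed by 0.26 (adjusted p = 0.11), and its symbol does not show that it holds unfolded proteins. Hspb1 (Hsp25), a strongly heat-inducible member, lay below the filter, with 5.80, 5.65 and 5.69 on the shock arrays, against 6.27, 6.76 and 6.26 on the female arrays. All shock arrays were below all female arrays, and the difference was -0.71, with adjusted p = 0.0174 in the fit without a filter. The brightest probe sets of the chaperonins did not pass. Hspe1, the co-chaperonin of mitochondrial Hsp60, differed by 0.03 (SE 0.11, adjusted p = 0.837), and Tcp1, a subunit of the cytosolic ring TRiC that folds actin and tubulin, by -0.04 (SE 0.10, adjusted p = 0.799). By their brightest probe sets the 8 tested TRiC subunits ranged from -0.15 to 0.24, with 0 calls and 0 at an unadjusted p under 0.05 (limma). In none of these were the groups apart. Of all tested genes 20.0% passed and 48.7% had groups apart. Further probe sets of Cct4 and Cct3 passed, at 0.64 and -0.33.

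Probe sets other than the brightest gave a different balance of directions. In 47 members a further 88 probe sets were tested, of which 13 passed (14.8%, beside 22.4% of all 10773 such probe sets), 1 higher in shock (Cct4, 0.64, adjusted p = 0.0271) and 12 lower. The 12 were in Hsp90ab1, Dnaja4, Dnaja3, Dnajb6, Dnajc3, Dnajc5, Dnajc8, Dnajc14, Dnajc28, Hspa4, Hsph1 and Cct3, from -0.67 to -0.29. In Dnaja4, for example, the probe set that passed was at -0.61 (adjusted p = 0.00839) while the brightest was at 0.24 (adjusted p = 0.145). Of the 88, 44 had the same sign as the brightest probe set of the gene and 44 the opposite sign. In 22 members with probe sets at least 500 bases apart, the difference at the most 5' probe set was below that at the most 3' in 17, with a median gap of -0.24. Over all 2647 such genes it was below in 77.6%, with a median gap of -0.28. In Hspa13 the 2 ends gave 0.06 at the 5' side and 0.81 at the 3' side, and in Hspa4 they gave -0.26 and 0.30. The 5' to 3' measure did not overlap between the groups, so a fit that holds both cannot separate them well. With the measure in the fit 1 of all 27022 probe sets passed, against 5614 without it. Of the members 0 passed, with 5 at an unadjusted p under 0.05 (limma). The differences of the other genes that were higher in shock were then 0.29 for Hspa14, 0.24 for Hspa1b, 0.17 for Dnajc10 and 0.15 for Dnajc12. 

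**Figure D4:**
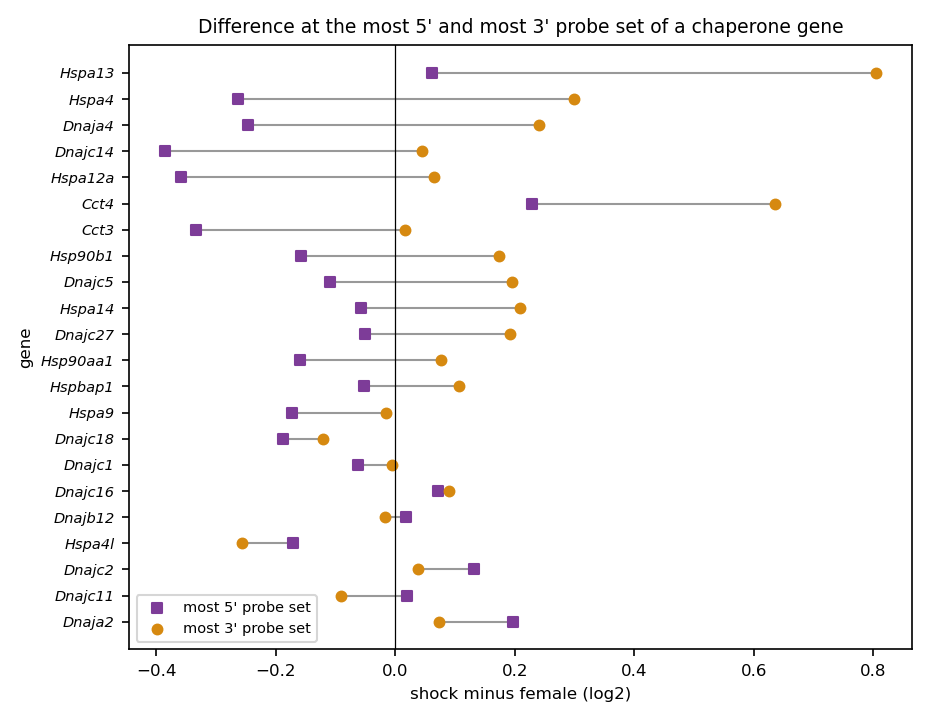
Difference in RMA value, shock minus female (log2, x axis), at the most 5' (squares) and the most 3' (circles) tested probe set of 22 chaperone genes (y axis). The square lies left of the circle in 17 of the 22 genes, with the widest gap in Hspa13.

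Other genes of the pathway, outside the member rule, were read from lists, whose counts under other settings were added after seeing the data. Of 30 tested genes listed as co-chaperones of Hsp70 and Hsp90, 7 fell in shock, 1 rose and 22 did not pass, with a median of -0.06. The co-chaperone Ptges3 was on the list, but the symbol lookup took Ptges, a different gene, in its place. Ptges (0.03) is counted in this list throughout, among the 22, and Ptges3 was not read. Stub1 (CHIP), the ubiquitin ligase that docks on both chaperones, had 10.28, 10.41 and 10.47 on the shock arrays, against 11.03, 11.34 and 11.28 on the female arrays. All shock arrays were well below the lowest female array, and the difference was -0.83 (SE 0.11, adjusted p = 0.00495). Fkbp4 (FKBP52), an Hsp90 immunophilin of steroid receptor complexes, had 8.50, 8.40 and 8.73 on the shock arrays, against 9.29, 9.72 and 9.62 on the female arrays. Its arrays were as clearly apart, with a difference of -1.0 (SE 0.14, adjusted p = 0.00495), a 2.0-fold lower level. Cdc37, which loads kinases onto Hsp90, had 7.83, 7.89 and 8.17 on the shock arrays, against 8.82, 8.74 and 9.11 on the female arrays, with no overlap. Its difference was -0.93 (SE 0.13, adjusted p = 0.00548). Fkbp8, a membrane-anchored immunophilin that binds Hsp90, differed by -0.96 (SE 0.15, adjusted p = 0.0064), and Stip1 (Hop), the adapter that passes clients between Hsp70 and Hsp90, by -0.47 (adjusted p = 0.0164). The others that fell were Ttc1 and Unc45a, and Bag4, an Hsp70 exchange factor, rose by 0.62 (adjusted p = 0.0365), or by 0.39 without female replicate 2 and 0.14 with the 5' to 3' measure in the fit. Without female replicate 2 the counts were 8 lower and 1 higher, on MAS5 values 4 lower (Stub1, Fkbp4, Cdc37 and Fkbp8) and 0 higher, and with the 5' to 3' measure in the fit 0 (10 at an unadjusted p under 0.05), where the differences of those 4 genes were -0.65, -0.84, -1.10 and -0.72.

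Prefoldin hands actin and tubulin to TRiC, and tubulin cofactors take over the folded tubulin. Of 14 tested genes of this group 4 fell, 1 rose and 9 did not pass, with a median of 0.07. Those that fell were Pfdn5 at -0.83 (adjusted p = 0.0086), Pfdn2 at -0.66 (adjusted p = 0.0108), the prefoldin subunit Pfdn6 (H2-Ke2 in the table) at -0.55 (adjusted p = 0.0123) and Tbcb at -0.42 (adjusted p = 0.0191), and in all 4 every shock array was below every female array. Pdcl, a phosducin-like protein that works with TRiC, rose by 0.64 (adjusted p = 0.0217). On MAS5 values 0 of the 14 passed (limma, 4 at an unadjusted p under 0.05). Without female replicate 2 the same genes passed. With the 5' to 3' measure in the fit 0 passed (limma, 4 at an unadjusted p under 0.05). There Pfdn5 was at -0.40, Pfdn2 at -0.46, Pfdn6 at -0.48, Tbcb at -0.40 and Pdcl at 0.28. Of 31 tested genes of ER folding and the unfolded protein response, 5 fell, 3 rose and 23 did not pass, with a median of 0.06. The disulfide isomerase P4hb was at -0.68 (adjusted p = 0.0103), the degradation factor Derl2 at -0.49 (adjusted p = 0.018), the luminal protein Erp29 at -0.53 (adjusted p = 0.0217) and the mannosidase-like Edem3 at 0.63 (adjusted p = 0.0268). The other calls were Edem1 and the kinase Eif2ak3 (PERK), which rose, and Edem2 and the transcription factor Ddit3 (CHOP), which fell. Without female replicate 2 the ER counts were 7 lower and 3 higher. Ddit3 and Edem2 were then no longer past the threshold, and Manf, Sdf2l1, Calr and Pdia6 were past it. On MAS5 values 1 of the 31 passed (Derl2). With the 5' to 3' measure in the fit 0 of the 31 passed (limma, 5 at an unadjusted p under 0.05). There P4hb was at -0.55, Derl2 at -0.31, Erp29 at -0.16, Ddit3 at -0.29 and Edem2 at -0.39. Edem3 was at 0.11, Edem1 at 0.38 and Eif2ak3 at 0.10.

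Of 14 further stress-linked chaperones and targets 3 fell, 0 rose and 11 did not pass, with a median of -0.08. Trap1, the mitochondrial Hsp90, differed by -0.50 (SE 0.10, adjusted p = 0.0144), the proteasome shuttle Ubqln4 by -0.41 (adjusted p = 0.0207) and the autophagy receptor Sqstm1 by -0.31 (adjusted p = 0.0491). The segregase Vcp was at -0.30 (adjusted p = 0.0553). On MAS5 values 0 of the 14 passed (limma, 3 at an unadjusted p under 0.05). Without female replicate 2 the same 3 genes fell. With the 5' to 3' measure in the fit 0 passed (limma, 3 at an unadjusted p under 0.05). There Trap1 was at -0.43, Ubqln4 at -0.32 and Sqstm1 at -0.27. The share that passed was 26.7% for the co-chaperone list (Ptges counted) and 35.7% for prefoldin and TRiC partners. It was 25.8% for the ER list and 21.4% for this list, beside 20.0% of all tested genes and 8.33% of the members. No test was made of the difference between these shares.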

How the data were processed

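RNA from 6 pulldowns was measured on 6 arrays, each deposited once as RMA and once as MAS5 (12 samples), tools that the submitters' processing notes name without versions. RMA output was deposited on a log2 scale and MAS5 output as linear intensity, as the values themselves show. The authors also deposited a comparison table that holds, per the file headers, group averages in log2, a signed fold change (a score, below 0 for genes higher in shock), a p-value of an ANOVA and its false discovery rate. Group averages and standard deviations of that table were not used. Symbols and positions come from it, without a named genome build, and 85 of 85 member symbols were found in RefSeq (GRCm38.p6).

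Shock minus female was fitted on RMA values with limma 3.58.1 in R 4.3.3 (lmFit, eBayes, 2-sided), with group as the only term, over the 27022 of 45037 probe sets whose mean lay above the 40th percentile (6.31). Every adjusted p is limma's, Benjamini-Hochberg over all tested probe sets, unless credited to the authors. The brightest probe set represented a gene, an _x_at one only where there was no other. The fit was tested on simulated data. The number of arrays limits the precision. Genes are named if they passed, or belong to a list of inducible and constitutive chaperones, or are among the 4 with the smallest p of a pathway list, and further genes that passed in a pathway list or with a second probe set were named after their values were seen. Hspd1 has no probe set with 1 symbol and is no member. Members and lists were chosen with earlier results of these data known. Alternatives changed the processing, filter, scaling, variance model, probe set, replicate block, covariate and arrays.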

Additional observations from a re-analysis of the deposited data

How the results depend on the processing

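Hspbp1 stayed lower in shock and past the threshold under every alternative run except the 5' to 3' covariate. Against 5 members higher and 1 lower in the reported fit, the counts were 0 higher and 0 lower with the 5' to 3' measure as a covariate, 0 higher on MAS5 values with a pseudocount of 16 or 1, 3 and 2 without a filter (Hspa13 and Hspa1b at adjusted p = 0.0622 and 0.0665), 2 lower after a further quantile normalization, 9 and 4 with array weights (8752 of all probe sets called), 2 and 3 with probe sets averaged per gene, 11 lower with the most variable probe set and 2 lower with the probe set nearest the 3' end. Leaving out 1 array at a time gave 0 to 7 higher and 1 to 3 lower. Without any one of the 3 shock arrays 0 members were higher. Without female replicate 2 Dnajb11 and Hspa5 joined the lower side and Hspa1b lost its call. Of all probe sets 5614 were called in the reported fit, 4919 without a filter and 1 with the covariate. On MAS5 values 543 were called with a pseudocount of 16 and 277 with 1. Except for array weights, totals of the remaining fits are not given here. Their member counts thus cannot be set against all probe sets. The labels do not say whether the 3 shock and 3 female replicate numbers pair the arrays. Correlations of same-numbered deviations were 0.01, 0.21 and 0.15, and those of differently numbered ones -0.21 to 0.12, which does not settle it. The fit with a replicate block gave 4 higher and 1 lower, with Hspa1b at adjusted p = 0.0572.

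Signs were followed in 32 members, the genes that passed and the listed inducible and constitutive chaperones. Other members turned too and are not listed here. With the covariate, for example, Dnaja3 went from 0.39 to -0.26 and Dnajc21 from 0.37 to -0.38. Among the 32, signs turned in genes that had not passed, and in Hspa13 with the covariate. With the covariate the differences were -0.12 for Hspa13, -0.071 for Hspa1a, -0.18 for Hspe1, -0.018 for Dnajb9, -0.014 for Dnajc3, -0.081 for Dnajc6, -0.093 for Hspa2 and -0.15 for Hspa12a. With probe sets averaged per gene they were 0.16 for Dnaja1, -0.037 for Hspe1, 0.050 for Hspa9, -0.015 for Dnajc3, -0.088 for Dnajc5, -0.15 for Dnajb6, -0.11 for Hspa4, 0.046 for Hspa4l and -0.077 for Hspa12a. With the most variable probe set they were 0.34 for Dnaja1, 0.34 for Hspa9, -0.43 for Dnajc5, -0.38 for Dnajc6, -0.40 for Dnajb6, -0.49 for Hspa4, 0.38 for Hspa4l and -0.36 for Hspa12a. On MAS5 values they were 0.044 for Hspa9 with a pseudocount of 16, 0.044 with 1, and -0.0052 for Hspa12a with either, with median centring 0.0074 for Hspa9, and with array weights -0.031 for Hspe1 and -0.011 for Hspa12a. Leaving out 1 array gave -0.10 to 0.029 for Hspa9, -0.077 to 0.0052 for Tcp1, -0.16 to 0.0069 for Dnaja1, -0.061 to 0.10 for Hspe1, -0.0007 to 0.084 for Hspa2, -0.037 to 0.12 for Hspa12a and -0.31 to 0.0067 for Hspa5. The cause of these changes was not tested. The filter on dim probe sets left 13 members untested.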

Other observations

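Probe sets that carry 2 symbols fall outside the member rule and are given as values. The probe set of Hspd1, the mitochondrial chaperonin Hsp60, which it shares with LOC101056370, had 11.12, 10.99 and 11.12 on the shock arrays, against 11.14, 10.75 and 11.19 on the female arrays, a difference of 0.05 (adjusted p = 0.789, limma). The groups overlapped, as they did for its partner Hspe1. A probe set shared by Hspa4l and 4921509J17Rik had 9.56, 9.44 and 9.50 on the shock arrays, against 9.09, 8.18 and 8.99 on the female arrays, a difference of 0.75 (adjusted p = 0.0338). The 4 tested probe sets that carry Hspa4l alone were at -0.26, -0.17, 0.23 and 0.38. Of 3 probe sets shared by Dnajc19, a J protein of the mitochondrial inner membrane, and Dnajc19-ps, 1 was higher in shock by 0.56 (adjusted p = 0.0121) and the others were at -0.10 and 0.02. A probe set shared by Dnajb14 and 1110018F16Rik was at 0.42 (adjusted p = 0.0808).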
